A study of Mus musculus with 36 samples.

Results

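Sox1, Sox2, Sox3, Sox21, Sox4 and Sox11 are 6 of the 54281 genes measured in mouse embryonic stem cells (ESCs) on their way to anterior neural progenitor cells (antNPCs). They were taken by symbol from every count and transcripts-per-million (TPM) table, and each symbol stood for 1 gene in all 36 libraries. Sox1, Sox2 and Sox3 form the SoxB1 group, Sox21 belongs to SoxB2, and Sox4 and Sox11 belong to SoxC. In wild-type cells Sox3, Sox4 and Sox11 had risen by day 1, Sox1 and Sox21 rose by day 4, and Sox2, abundant from the start, fell. In Tet1 KO cells the first steps were taken too, but Sox2 and Sox1 were lower from day 3, Sox3 from day 4 and Sox21 on day 5, while Sox4 went the other way between days 3 and 5.

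Sox proteins bind DNA through a high-mobility-group domain and act together with partner factors, often of the POU family. SoxB1 proteins are transcriptional activators that keep cells in a neural progenitor state, and Sox2 serves pluripotent cells as well, in a pair with the POU factor encoded by Pou5f1. Sox21 acts mostly as a repressor and opposes SoxB1 proteins as progenitors move towards neurons. SoxC proteins take part in neuronal differentiation and are also made in mesenchyme and in the developing heart. In the vertebrate neural plate Sox2 and Sox3 come before Sox1, which is widely used as the first marker of committed neural cells.

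The study asked how loss of the DNA dioxygenase TET1, or of its catalytic activity alone, alters germ layer choice during neural induction. All lines carry the label B6129S6F1 Tet1<tm1Koh>, the mouse stock from which they came, the WT lines included. KO stands for lines KO1 and KO15, in which Tet1 is knocked out, and WT for their partners WT7 and WT34. According to the study these are male lines from littermate blastocysts. MUT stands for the lines CM59 and CM69, labelled as Tet1 MUT made by CRISPR homology-directed repair, which the study derived as single clones from WT7 to carry a catalytically dead TET1. WT70, kept apart here, is labelled as WT only. All cultures started from feeder-depleted ESCs grown in serum, which were plated on gelatin in N2B27 medium with basic fibroblast growth factor (bFGF) from day 0 until day 3 and then kept without bFGF to day 5. No label of these libraries names a signalling inhibitor.

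The tables came in 3 sets, called experiments 1, 2 and 3 here. Experiment 1 held 12 KO and WT libraries of days 0, 3 and 5, experiment 2 held 18 KO and WT libraries marked as a time course (days 1 to 5), and experiment 3 held 6 MUT and WT70 libraries of days 3 and 5. Each line gave 1 library per day and experiment, except that on day 5 experiment 2 held only KO1 and WT7. KO and WT therefore had 2 libraries each on days 0, 1, 2 and 4, 4 on day 3 and 3 on day 5, MUT had 2 and WT70 had 1. Libraries of the same line are not independent lines, and p-values measure the spread between these libraries. Libraries held 10139521 to 26307363 counts, of which 1.21 to 5.68% were mitochondrial. Tet1 itself stood at 28.9 to 83.1 CPM (counts scaled to library size) in the 15 KO libraries and at 108.1 to 1432 in the 15 WT libraries, with no overlap, and at 157.7 to 319.7 in MUT and 169.5 to 253.8 in WT70. On day 0 the summed epiblast markers Pou5f1, Utf1, Dnmt3b, Fgf5 and Pim2 reached 716.3 to 775.0 TPM in KO and 833.1 to 841.1 TPM in WT.

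All 6 genes have a single exon and a single annotated transcript in GENCODE M21 (GRCm38/mm10). Sox1 (ENSMUSG00000096014) lies on the plus strand of chromosome 8 from 12395295 to 12400126, with 1173 coding bases in 4832. Sox2 (ENSMUSG00000074637) lies on the plus strand of chromosome 3 from 34650405 to 34652461, with 957 coding bases in 2057. Sox3 (ENSMUSG00000045179) lies on the minus strand of chromosome X from 60891366 to 60893430, with 1350 coding bases in 2065. Sox21 (ENSMUSG00000061517) lies on the minus strand of chromosome 14 from 118233232 to 118237030, with 828 coding bases in 3799. Sox4 (ENSMUSG00000076431) lies on the minus strand of chromosome 13 from 28948919 to 28953713, with 1320 coding bases in 4795, and Sox11 (ENSMUSG00000063632) on the minus strand of chromosome 12 from 27334264 to 27342574, with 1185 in 8311. The members share no run of 50 letters, the full read length, with each other. Each shares 13 to 30 words of 31 letters with other members, so reads shortened by trimming may match more than 1 of them.

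Neighbouring transcripts overlap 4 of the 6. Sox2ot and Sox1ot run on the same strand as the gene they are named for, and neither was abundant (at most 1.46 and 0.394 TPM in any library). The miRNA gene Gm25239 lies within Sox1 on the same strand and shares 0.774% of the 50-letter words of Sox1. It was listed at 0 in all but 2 libraries, 1 KO library with 18.5 TPM and 1 WT70 library with 10.9 TPM. On the opposite strand, Gm4675 overlaps Sox21 and Gm26735 overlaps Sox4. Of the 50-letter words of Sox21 and Sox4, 17.8% and 54.1% were found on the opposite strand of other genes. Gm4675 never passed 0.798 TPM, and no level of Gm26735 is reported here. The library kit marks the strand, but whether the quantification used it is not given in the sources used here. Without strand, reads of Sox4 and Sox21 from these shared words cannot be told apart from reads of the opposite strand.

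The study concerns an enzyme that acts on methylated CG pairs, so the CG content of the promoters is shown for a SoxB1, the SoxB2 and a SoxC gene that moved differently. The sequences are the 250 bases before the RefSeq start (GRCm38.p6), 5′ to 3′ on the gene's strand, with every CG in capitals. RefSeq entries were matched for 5 of the 6 members, all but Sox3. Except for Sox21, their starts differ from the GENCODE starts given above. The Sox1 window, 12395269 to 12395518, runs past the GENCODE start at 12395295, so most of it lies within that transcript. The Sox2 window ends at 34649994, before the GENCODE start at 34650405.
Sox2, chr3:34649745-34649994, plus strand: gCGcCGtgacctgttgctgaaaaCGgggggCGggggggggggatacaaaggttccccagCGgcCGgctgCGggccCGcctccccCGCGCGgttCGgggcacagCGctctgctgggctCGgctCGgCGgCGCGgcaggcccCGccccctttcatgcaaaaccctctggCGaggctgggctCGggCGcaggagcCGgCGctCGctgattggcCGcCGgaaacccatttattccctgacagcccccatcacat
Sox21, chr14:118237031-118237280, minus strand: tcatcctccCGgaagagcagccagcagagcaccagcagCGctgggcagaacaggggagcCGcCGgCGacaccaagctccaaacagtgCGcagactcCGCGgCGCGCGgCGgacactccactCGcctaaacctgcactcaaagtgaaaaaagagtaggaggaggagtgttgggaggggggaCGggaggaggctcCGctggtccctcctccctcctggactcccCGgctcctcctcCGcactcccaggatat
Sox4, chr13:28953700-28953949, minus strand: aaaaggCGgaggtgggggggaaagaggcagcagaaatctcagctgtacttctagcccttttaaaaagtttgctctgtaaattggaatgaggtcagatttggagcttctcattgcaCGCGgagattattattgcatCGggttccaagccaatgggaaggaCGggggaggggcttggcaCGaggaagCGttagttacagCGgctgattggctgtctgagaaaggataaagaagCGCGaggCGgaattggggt
These windows held 27, 17 and 11 CG pairs, and those of Sox1 and Sox11 held 29 and 17, against a median of 6 over 32841 promoters of the same length. The window of Sox1 exceeded 93.2% of all promoters in CG count and that of Sox2 91.4%, while Sox21 and Sox11 each exceeded 76.5% and Sox4 64.4%. GC content was 71.2% for Sox1, 72.0% for Sox2, 65.2% for Sox21, 58.0% for Sox11 and 50.8% for Sox4, against a median of 52.4%. Methylation was not measured in these files, and nothing here ties the CG counts to the levels below.

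On both strands of the 5 windows, CCAAT was found 4 times before Sox4, once each before Sox1, Sox2 and Sox11, and in 33.9% of all promoters. The Sox-type word ACAAAG was found once, before Sox2, and in 16.5% of all promoters. CTTTGA, searched as a word of the TCF/LEF factors, was found once, before Sox21, and in 13.8% of all promoters. It differs from the reverse complement of ACAAAG only in its last letter, so these words do not separate the families of factors. Neither ACAAT (27.7% of all promoters) nor TATAAA (12.4%) was found in any of the 5 windows. These are matches of letters and say nothing of binding.

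The level of every member in every library is plotted against the day of differentiation. Per-library values below stand in the order WT7, WT34 (or KO1, KO15), with experiment 1 before experiment 2, and are TPM, which corrects for transcript length so that genes can be set beside each other. Fold changes, in contrast, come from counts, as log2 fold change ± standard error (SE) from edgeR's quasi-likelihood test on all 36 libraries with Benjamini-Hochberg adjusted p over 21601 tested genes. All 6 members passed the filter on low counts. A gene is said to have risen or fallen only with an adjusted p under 0.05 and a log2 fold change beyond 1.

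**Figure D1:**
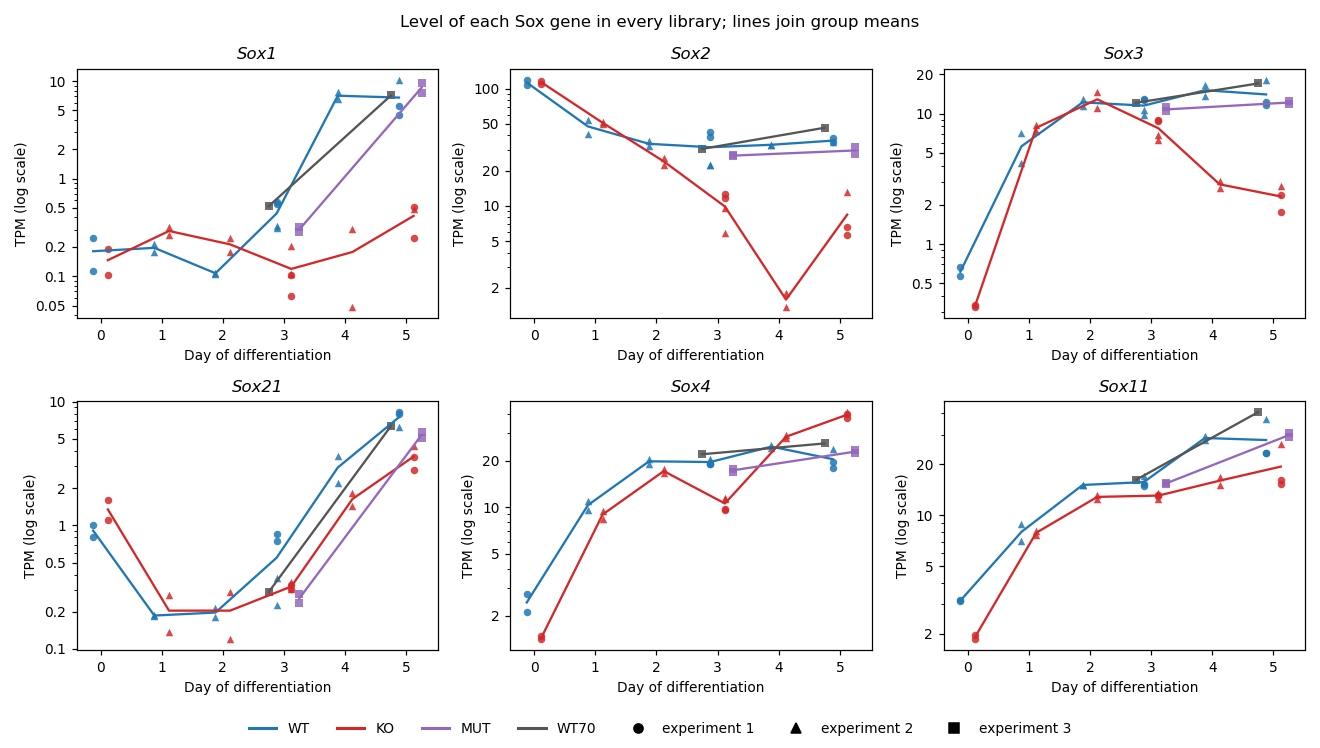
TPM (log axis) of each gene against the day of differentiation, 1 point per library, with lines through group means. WT is blue, KO red, MUT purple and WT70 grey, and the marker shape gives the experiment. Sox1, Sox2 and Sox3 of KO leave the WT course between days 3 and 5, when Sox4 of KO passes it.

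In WT cells 3 of the 6 members had risen and 1 had fallen on day 1 against day 0, where 12.6% of all tested genes passed in either direction. On day 2 the counts were 3 and 2 (15.9% of all genes), on day 3 they were 3 and 1 (22.5%), and on days 4 and 5 they were 5 and 1 (23.4% and 29.7%). The early 3 were Sox3, Sox4 and Sox11, and the late 2 were Sox1 and Sox21. Day 0 was measured in experiment 1 only and days 1, 2 and 4 in experiment 2 only, so these comparisons lean on the term for the experiment. From one day to the next, 1 member rose from day 1 to day 2 (Sox3, 12.8% of all genes), 1 from day 2 to day 3 (Sox1, 4.68%), 2 from day 3 to day 4 (Sox1 and Sox21, 5.37%) and 1 from day 4 to day 5 (Sox21, 2.67%), and none fell in any of these steps. Of these steps only the first lies within experiment 2 alone, since days 3 and 5 hold both experiments. A first day with a mean of at least 5 TPM gave the same order in WT (Sox3, Sox4 and Sox11 on day 1, Sox1 on day 4) except that Sox21 followed on day 5, and Sox2 was above that level from day 0. With a required log2 fold change of 1.5 the first day of Sox11 was day 2.

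In KO cells the early step was the same by count, with 3 members up and 1 down on day 1 against day 0 (14.8% of all genes). Days 2 and 3 gave 3 up and 2 down (16.2% and 21.2%), day 4 gave 3 up and 1 down (23.4%) and day 5 gave 5 up and 1 down (31.8%). Sox3, Sox4 and Sox11 were again the members up on day 1, and Sox1 and Sox21 were first up on day 5 rather than day 4. Neither Sox1 nor Sox21 reached a mean of 5 TPM on any day in KO, and neither had a rise against day 0 beyond a log2 fold change of 1.5. Day by day, Sox2 was the 1 member that fell from day 1 to day 2 (12.9% of all genes) and again from day 2 to day 3 (4.89%). From day 3 to day 4, 2 rose (Sox4 and Sox21) and 2 fell (Sox2 and Sox3), where 11.2% of all genes passed, and from day 4 to day 5 Sox2 alone rose (7.22%). The courses of the 2 genotypes against their own day 0 share no libraries, but a first day of passing in one and not in the other is no test of a difference, which the comparison of KO with WT on each day gives.

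Between KO and WT none of the 6 members passed on day 0, day 1 or day 2, where 0.866%, 0.634% and 0.616% of all genes did. On day 3, 2 were lower in KO and none higher (3.96% of all genes passed, 451 up and 405 down), on day 4, 3 were lower (7.68%) and on day 5, 4 were lower (11.7%). The median log2 fold change of the 6 was -0.75 on day 3, -1.54 on day 4 and -1.61 on day 5, and that of all tested genes was 0.01, 0.00 and -0.01. The plot of fold changes by day shows each member with its 95% interval.

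**Figure D2:**
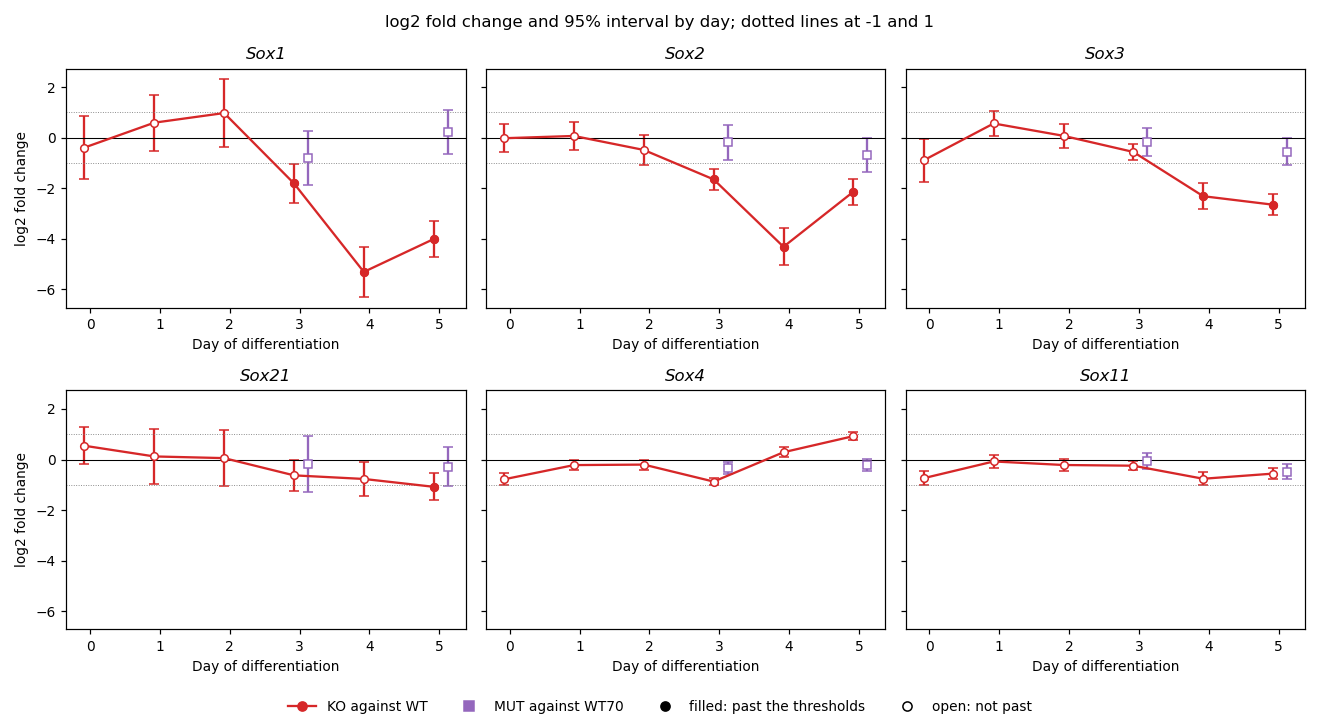
Log2 fold change with 95% interval for KO against WT on days 0 to 5 (red circles) and MUT against WT70 on days 3 and 5 (purple squares), with the day on the horizontal axis. Filled symbols passed both thresholds. Sox1 and Sox2 are filled from day 3, Sox3 from day 4 and Sox21 on day 5, and no purple symbol is filled.

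Sox2, the SoxB1 gene shared by pluripotent and neural cells, was the most abundant member on day 0. Its WT level was 119 and 106.7 TPM on day 0, 41.4 and 53.8 on day 1, 32.2 and 35.4 on day 2, 43.0, 39.0, 22.1 and 22.4 on day 3, 33.4 and 33.0 on day 4, and 35.1, 37.7 and 35.2 on day 5. The level thus settled by day 2, with the 2 experiments apart on day 3. In KO it was 109.8 and 116.2 TPM on day 0, 52.2 and 50.1 on day 1, 25.7 and 22.2 on day 2, 11.7, 12.5, 5.82 and 9.50 on day 3, 1.38 and 1.80 on day 4, and 5.62, 6.62 and 13.0 on day 5. The genotypes overlapped on days 0 and 1, and from day 2 every KO library lay below every WT library.

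On day 3 Sox2 was lower in KO by a log2 fold change of -1.65 ± 0.20 (adjusted p = 2.03e-06), with a mean at 31.2% of that of WT. On day 4 the log2 fold change was -4.31 ± 0.35 (adjusted p = 2.55e-09), and the KO mean was 4.79% of that of WT. On day 5 it was -2.14 ± 0.24 (adjusted p = 1.85e-07), with the mean at 23.4%. Day 4 was therefore the lowest point, and the KO level rose again from day 4 to day 5 by 2.18 ± 0.35 (adjusted p = 5.55e-05). The KO1 library of experiment 2, at 13.0 TPM, carried part of that rise: without it the step was 1.37 and the day 5 difference from WT was -2.75, both still past the thresholds. The step of 1.37 set day 5 of experiment 1 against day 4 of experiment 2, so it leaned wholly on the term for the experiment. On day 2 the log2 fold change was -0.48 ± 0.28 (adjusted p = 0.547).

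Sox3, a SoxB1 gene on the X chromosome that is expressed in epiblast and early neural cells, started near 0. In WT it was measured at 0.565 and 0.663 TPM on day 0, 4.20 and 7.05 on day 1, 12.9 and 11.5 on day 2, 12.8, 12.9, 10.8 and 9.70 on day 3, 16.6 and 13.7 on day 4, and 12.3, 11.7 and 18.1 on day 5. It had gained most of its level by day 2. In KO it was measured at 0.331 and 0.341 TPM on day 0, 7.41 and 8.17 on day 1, 11.1 and 14.7 on day 2, 8.78, 8.96, 6.83 and 6.30 on day 3, 2.69 and 3.06 on day 4, and 1.77, 2.40 and 2.79 on day 5. The KO libraries lay below both WT libraries on day 0, above them on day 1, overlapped them on day 2 and lay below all of them from day 3.

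The rise of Sox3 on day 1 was 3.23 ± 0.32 in WT (adjusted p = 3.83e-08) and 4.69 ± 0.35 in KO (adjusted p = 1.85e-10), each against its own day 0, and the WT value was 2.63 without the WT34 library of day 1. The further WT step to day 2, at 1.01 ± 0.23 (adjusted p = 0.00138), sat at the threshold and was 0.53 without the WT7 library of day 1, 0.87 without the WT7 library of day 2 and 1.60 without the WT34 library of day 1. KO against WT, Sox3 differed by 0.57 ± 0.23 on day 1 (adjusted p = 0.216), which became 1.16 (adjusted p = 0.00285) without the WT34 library of day 1. On day 3 it was -0.56 ± 0.16 (adjusted p = 0.0163), short of the required fold. Sox3 was lower in KO on day 4 by -2.31 ± 0.25 (adjusted p = 1.74e-07) and on day 5 by -2.65 ± 0.21 (adjusted p = 2.88e-10), where the KO means were 19.0% and 16.5% of those of WT. Within KO, from day 3 to day 4, the level fell by 1.38 on the log2 scale (SE 0.23, adjusted p = 4.69e-05).

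Sox1, the SoxB1 gene used as a marker of neural commitment, was the last of the SoxB1 genes to appear and stayed below Sox2 and Sox3 in every group mean of WT. Its WT level was 0.113 and 0.247 TPM on day 0, 0.177 and 0.213 on day 1, 0.106 and 0.108 on day 2, 0.550, 0.571, 0.310 and 0.328 on day 3, 7.64 and 6.52 on day 4, and 4.44, 5.60 and 10.3 on day 5. All 5 libraries of days 4 and 5 lay above every earlier WT library. In KO it was 0.189 and 0.103 TPM on day 0, 0.320 and 0.261 on day 1, 0.177 and 0.247 on day 2, 0.0619, 0.103, 0.105 and 0.204 on day 3, 0.0485 and 0.305 on day 4, and 0.248, 0.512 and 0.484 on day 5. No KO library passed the highest WT library of day 3, and on days 3, 4 and 5 the genotypes did not overlap.

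In WT, Sox1 rose from day 2 to day 3 by 2.11 ± 0.55 (adjusted p = 0.00882), a step that did not pass without either library of day 2 (adjusted p = 0.0806 and 0.0777), and from day 3 to day 4 by 3.82 ± 0.36 (adjusted p = 3.72e-08). Against day 0 it had risen by 4.71 ± 0.53 on day 4 and 4.89 ± 0.46 on day 5, and by 5.38 and 5.56 when the WT34 library of day 0 was left out. KO against WT, the log2 fold change was -1.81 ± 0.38 on day 3 (adjusted p = 0.00129), -5.31 ± 0.48 on day 4 (adjusted p = 1.15e-08) and -4.01 ± 0.35 on day 5 (adjusted p = 1.85e-09). The KO means on these days were 27.0%, 2.50% and 6.12% of those of WT. On the scale of log2(TPM + 1), where low genes move less, limma gave -0.36 on day 3 (adjusted p = 0.152). With few reads behind it, the day 4 value moved to -4.50 without KO1 and to -7.02 without KO15, and on days 0 to 2 the differences of -0.39, 0.60 and 0.98 had SEs of 0.54 to 0.64 and did not pass. The rise of Sox1 in KO on day 5 against day 0, at 1.27 ± 0.52 (adjusted p = 0.0416), did not pass when any of 4 libraries was left out (both of day 0 and, on day 5, KO15 and the KO1 library of experiment 2, adjusted p = 0.0514 to 0.239). From day 4 to day 5 in KO the step of 1.48 ± 0.54 missed the threshold (adjusted p = 0.0516) and passed with the cell line as a block (1.63, adjusted p = 0.0357), without KO15 of day 4 (3.22) and without KO1 of experiment 1 on day 5 (1.68).

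Sox21, the SoxB2 gene that encodes a repressor, had a course of its own, with a low level in ESCs, a dip and a late rise. In WT it stood at 0.802 and 1.01 TPM on day 0, 0.188 and 0.185 on day 1, 0.213 and 0.181 on day 2, 0.845, 0.744, 0.373 and 0.227 on day 3, 3.67 and 2.20 on day 4, and 8.01, 8.25 and 6.23 on day 5. On day 5 it was above Sox1 in 2 of the 3 WT libraries. In KO it stood at 1.10 and 1.60 TPM on day 0, 0.271 and 0.137 on day 1, 0.288 and 0.120 on day 2, 0.303, 0.327, 0.305 and 0.346 on day 3, 1.43 and 1.84 on day 4, and 2.79, 3.60 and 4.43 on day 5. The shape was shared by both genotypes, which overlapped on days 1, 2 and 3, and KO lay above WT on day 0 and below it on days 4 and 5.

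Sox21 fell on day 1 against day 0 in WT (-1.87 ± 0.49, adjusted p = 0.00475) and in KO (-2.29 ± 0.47, adjusted p = 0.000409). It rose from day 3 to day 4 by 2.65 ± 0.32 in WT (adjusted p = 1.81e-06) and by 2.50 ± 0.33 in KO (adjusted p = 1.76e-06). The next WT step, 1.20 ± 0.33 (adjusted p = 0.0195), was 0.90 (adjusted p = 0.247) without WT34 of day 4, and the same step in KO was 0.89 ± 0.33 (adjusted p = 0.0553) and passed at 1.05 (adjusted p = 0.0261) without KO1 of experiment 1. KO against WT, the log2 fold change was -0.63 ± 0.30 on day 3 (adjusted p = 0.176), -0.77 ± 0.33 on day 4 (adjusted p = 0.126) and -1.08 ± 0.26 on day 5 (adjusted p = 0.00206). Only the day 5 value passed, with a KO mean at 48.1% of that of WT, and it did not pass at -0.85 (adjusted p = 0.0284) without KO1 of experiment 1 or at -0.89 with limma on log2(TPM + 1). On that scale the early fall was -0.55 in WT and -0.83 in KO and did not pass. Of the 4 members called lower on day 5, Sox21 was thus the one nearest to the threshold.

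Sox4, a SoxC gene active in early neurons and also in mesenchyme and endocardium, had risen by day 1 in both genotypes. In WT it was measured at 2.10 and 2.76 TPM on day 0, 9.62 and 11.0 on day 1, 20.4 and 19.1 on day 2, 19.0, 19.0, 20.5 and 19.8 on day 3, 25.2 and 24.0 on day 4, and 17.9, 19.6 and 23.8 on day 5. From day 2 on the WT level was nearly flat. In KO it was measured at 1.41 and 1.48 TPM on day 0, 8.42 and 9.51 on day 1, 16.6 and 17.6 on day 2, 9.61, 9.80, 11.3 and 11.5 on day 3, 29.2 and 27.8 on day 4, and 37.7, 39.8 and 41.0 on day 5. The KO libraries lay below all WT libraries on days 0 to 3 and above all of them on days 4 and 5.

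Against day 0 Sox4 had risen on day 1 by 2.03 ± 0.12 in WT (adjusted p = 3.6e-12) and 2.59 ± 0.12 in KO (adjusted p = 5.16e-14). In KO it then rose from day 3 to day 4 by 1.36 ± 0.09 (adjusted p = 1.32e-11), a step of 0.20 ± 0.09 in WT (adjusted p = 0.122). KO against WT, the difference was -0.78 ± 0.11 on day 0 (adjusted p = 0.000162), -0.87 ± 0.07 on day 3 (adjusted p = 1.69e-09), 0.29 ± 0.10 on day 4 (adjusted p = 0.0409) and 0.92 ± 0.08 on day 5 (adjusted p = 1.45e-09). All 4 passed on p and none on size. The day 5 mean in KO was 193.5% of that of WT, and the log2 fold change was 1.01 without the KO1 library of experiment 2 and 1.02 with experiment 1 alone as the source of day 5, an alternative chosen after the values were seen.

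Sox11, the other SoxC gene of the set and a regulator of early neuronal genes, rose in both genotypes. In WT it was 3.12 and 3.14 TPM on day 0, 7.07 and 8.90 on day 1, 15.2 and 15.1 on day 2, 15.0, 15.3, 17.0 and 15.7 on day 3, 29.5 and 27.7 on day 4, and 23.3, 23.4 and 36.9 on day 5. In KO it was 1.96 and 1.86 TPM on day 0, 7.67 and 8.10 on day 1, 12.5 and 13.2 on day 2, 13.2, 13.1, 12.6 and 13.6 on day 3, 15.2 and 16.9 on day 4, and 15.4, 16.3 and 26.5 on day 5. On days 2, 3 and 4 all KO libraries lay below all WT libraries, while on day 5 the KO1 library of experiment 2 lay above 2 WT libraries of experiment 1 and below the WT library of its own experiment. Against day 0 Sox11 had risen on day 1 by 1.21 ± 0.14 in WT (adjusted p = 4.51e-07) and 1.87 ± 0.15 in KO (adjusted p = 4.46e-10). KO against WT, it differed by -0.74 ± 0.13 on day 0 (adjusted p = 0.00134), -0.25 ± 0.09 on day 3 (adjusted p = 0.0522), -0.76 ± 0.12 on day 4 (adjusted p = 5.24e-05) and -0.56 ± 0.10 on day 5 (adjusted p = 8.28e-05). None of these reached the required fold.

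The mix of the 6 transcripts shifted accordingly. In WT the summed SoxB1 level was 113.4 ± 8.22 TPM on day 0 (mean ± SD, n = 2), 43.6 ± 12.6 on day 3 (n = 4) and 56.8 ± 6.11 on day 5 (n = 3). In KO it was 113.5 ± 4.51 TPM on day 0 (n = 2), 17.7 ± 4.10 on day 3 (n = 4), 4.64 ± 0.743 on day 4 (n = 2) and 11.2 ± 4.54 on day 5 (n = 3). The sum in KO was thus lowest on day 4. Sox4 and Sox11 together made up 4.66 ± 0.699% of the sum of the 6 in WT on day 0 and 42.6 ± 3.40% on day 5, and in KO 2.84 ± 0.136% on day 0, 87.7 ± 1.74% on day 4 and 80.4 ± 3.56% on day 5. In KO the SoxC share of every library of days 4 and 5 was 76.6% or more, while the highest WT library of any day was at 52.7%. The make-up also changed within SoxB1: Sox3 was 62.3 ± 4.29% of the SoxB1 sum in KO on day 4 and 27.3 ± 2.23% in WT. No test was run on these sums and shares, which follow from the values of the members.

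**Figure D3:**
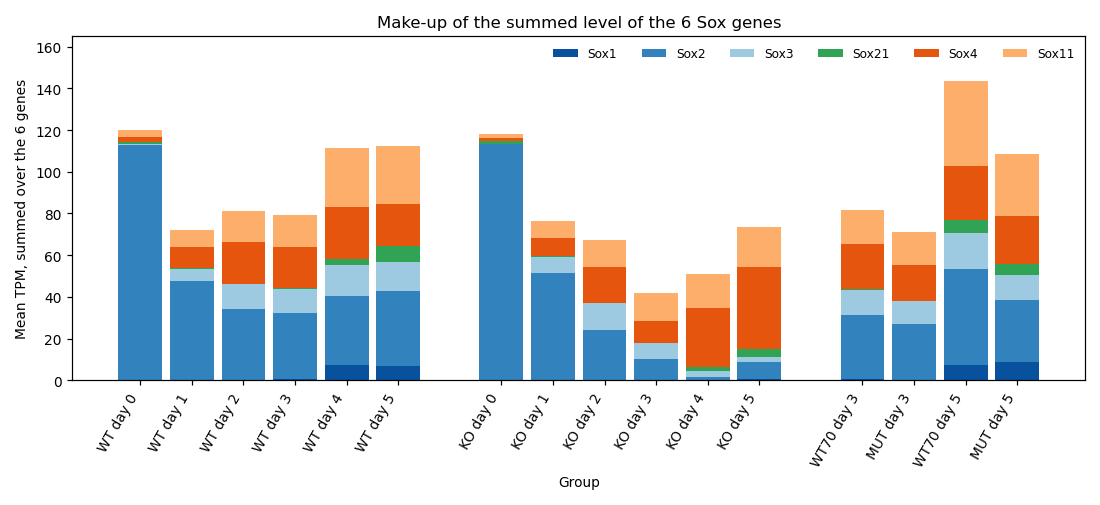
Mean TPM of the 6 genes stacked per group, with groups along the horizontal axis. The blue segments (SoxB1) shrink to 4.64 TPM in KO on day 4 while the orange segments (SoxC) reach 58.9 TPM in KO on day 5. On day 5 the blue segments stand at 50.4 TPM in MUT and 70.5 TPM in WT70.

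Whether the KO difference itself changed between days 3 and 5 was tested as a difference of differences. It grew for 2 members and turned for 1, where 9.43% of all genes passed. Sox1 moved further down by -2.20 ± 0.53 (adjusted p = 0.00337) and Sox3 by -2.09 ± 0.26 (adjusted p = 1.32e-06), and Sox4 moved up by 1.80 ± 0.10 (adjusted p = 1.07e-11). For Sox2 the change was -0.49 ± 0.31 (adjusted p = 0.305), and it was -1.14 (adjusted p = 0.000242) without the KO1 library of experiment 2 on day 5. For Sox21 it was -0.45 (95% interval -1.26 to 0.36) and for Sox11 -0.31 (95% interval -0.58 to -0.04, adjusted p = 0.0906).

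Days 3 and 5 were measured in both experiments, so KO and WT could be set against each other in each alone. On day 3, 4.83% of the genes tested passed in experiment 1 alone and 2.46% in experiment 2 alone. Sox2 was lower in KO in both (-1.74 and -1.49). Sox1 was lower in experiment 1 (-2.72, adjusted p = 0.001) and did not pass in experiment 2 (-0.99, adjusted p = 0.26), and Sox21 was lower in experiment 1 (-1.30, adjusted p = 0.00362) and had a value of the other sign in experiment 2 (0.22, adjusted p = 0.838). On day 5 experiment 2 held 1 library per genotype, and its spread came from its other days. In experiment 1 alone 12.8% of the genes tested passed on that day, and in experiment 2 alone 7.24%. On that day Sox1 (-3.73 and -4.43), Sox2 (-2.60 and -1.46) and Sox3 (-2.55 and -2.74) were lower in both experiments. Sox21 passed in experiment 1 alone (-1.38) and not in experiment 2 alone (-0.52, adjusted p = 0.499), and Sox4 passed in experiment 1 alone (1.01), with 0.77 in experiment 2. The plot of the experiments shows these values.

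**Figure D4:**
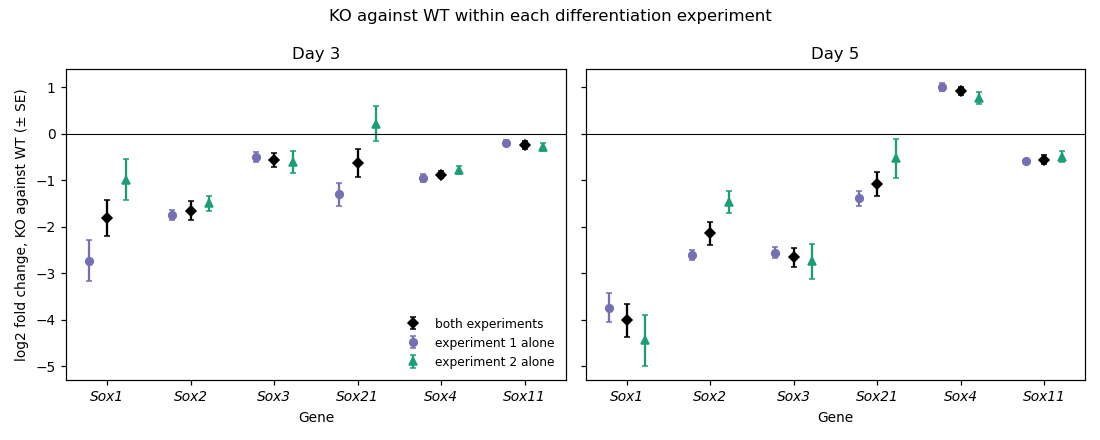
Log2 fold change of KO against WT (± SE) on days 3 and 5 for the 6 genes, with both experiments together (black diamonds), experiment 1 alone (purple circles) and experiment 2 alone (green triangles). The directions match on day 5 for all 6 genes, and on day 3 Sox21 is at -1.30 in experiment 1 and 0.22 in experiment 2.

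The MUT lines ask what loss of catalytic activity alone does, and WT70 is the control of the same experiment. Against WT70 none of the 6 members passed on day 3 (0.148% of all genes did) or on day 5 (1.87%). Between days 3 and 5 in MUT, 2 members rose and none fell (17.4% of all genes), Sox1 by 4.76 ± 0.43 (adjusted p = 2.8e-09) and Sox21 by 4.31 ± 0.38 (adjusted p = 2.48e-09). WT70 had 1 library per day, which the model took to vary like the other groups, and a value that did not pass does not show that MUT and WT70 were alike.

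Sox1 was 0.320 and 0.280 TPM in CM59 and CM69 on day 3, with WT70 at 0.521, and 7.58 and 9.54 TPM on day 5, with WT70 at 7.13. Both MUT lines thus gained Sox1 to a level within the range of WT libraries on day 5 (4.44 to 10.3 TPM). Sox2 was 27.1 and 26.6 TPM on day 3 (WT70 30.6) and 27.5 and 31.9 on day 5 (WT70 46.4). Sox3 was 10.4 and 11.2 TPM on day 3 (WT70 12.1) and 11.9 and 12.4 on day 5 (WT70 17.0). On day 5 both SoxB1 genes lay below WT70 in both lines, by -0.68 for Sox2 (95% interval -1.36 to 0.00) and -0.54 for Sox3 (95% interval -1.09 to 0.00), and Sox1 differed by 0.22 (95% interval -0.66 to 1.10).

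Sox21 was 0.234 and 0.279 TPM in MUT on day 3 (WT70 0.288) and 5.05 and 5.73 on day 5 (WT70 6.37), a day 5 difference of -0.29 (95% interval -1.06 to 0.48). Sox4 was 17.6 and 17.0 TPM on day 3 (WT70 22.0) and 23.4 and 22.2 on day 5 (WT70 25.8), and the day 5 difference was -0.21 (95% interval -0.45 to 0.03). Sox11 was 15.6 and 15.4 TPM on day 3 (WT70 16.2) and 29.0 and 30.5 on day 5 (WT70 40.7), with a day 5 difference of -0.48 (95% interval -0.78 to -0.18, adjusted p = 0.0677). On day 5 the MUT mean lay above WT70 for Sox1 and below it for the other members, all against 1 WT70 library. The median log2 fold change was -0.38 for the 6 and 0.02 for all tested genes. With WT7, WT34 and WT70 together as the control, the day 5 differences ranged from -0.58 (Sox21) to 0.31 (Sox1) and none passed. Those of Sox4 and Sox11 were 0.03 and -0.04, and on day 3 that of Sox21 went from -0.17 to -0.96 (adjusted p = 0.178).

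KO and MUT stand in different experiments, so their effects were compared as the KO difference from WT minus the MUT difference from WT70. None of the members passed on day 3 (0.394% of all genes did), where Sox2 stood at -1.46 ± 0.41 (adjusted p = 0.112) and Sox4 at -0.53 ± 0.14 (adjusted p = 0.0747). On day 5, 3 were lower and 1 was higher in KO (3.62% of all genes passed). The KO effect exceeded the MUT effect downwards by -4.23 ± 0.59 for Sox1 (adjusted p = 4.55e-05) and -2.10 ± 0.35 for Sox3 (adjusted p = 0.00034), and upwards by 1.13 ± 0.14 for Sox4 (adjusted p = 7.56e-06). For Sox2 the value was -1.46 ± 0.42 (adjusted p = 0.0402), close to the threshold: with the cell line as a block the adjusted p was 0.109, without the term for the experiment it was 0.0747, and it lay between 0.0531 and 0.127 without 1 of 6 libraries (KO1 or KO15 of experiment 1, WT34 of experiment 1, WT7 of experiment 2, CM59 or CM69). Without the KO1 library of experiment 2 it was -2.08 (adjusted p = 1.81e-05). Sox21 differed by -0.79 (95% interval -1.75 to 0.16) and Sox11 by -0.08 (95% interval -0.44 to 0.29).

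Set directly against MUT, where genotype and experiment cannot be told apart, 2 members were lower in KO on day 3 (5.01% of all genes passed) and 3 on day 5 (11.9%). On day 3 these were Sox1 (-1.44 ± 0.47, adjusted p = 0.0359) and Sox2 (-1.34 ± 0.25, adjusted p = 0.000421). The value for Sox1 did not pass when any of 5 of the 6 libraries was left out (adjusted p = 0.0688 to 0.173, the exception being KO15 of experiment 2). On day 5 these were Sox1 (-4.40 ± 0.37), Sox2 (-1.72 ± 0.27) and Sox3 (-2.28 ± 0.22), with adjusted p = 3.07e-09, 2.76e-05 and 2.88e-08. Sox4, at 37.7 to 41.0 TPM in KO against 22.2 and 23.4 in MUT, differed by 0.76 ± 0.09 (adjusted p = 6.01e-07), and Sox11 by -0.76 ± 0.11 (adjusted p = 1.22e-05), both short of the required fold. Sox21 differed by -0.40 (95% interval -1.01 to 0.21). The 2 comparisons share the KO libraries.

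Genes of other cell types moved on the same days, and in bulk RNA fewer cells of a type and less RNA per cell cannot be told apart. The 9 primitive streak and mesoderm markers summed to 110.2 to 158.3 TPM in KO and 4.82 to 7.89 in WT on day 3, 171.1 to 206.0 and 35.2 to 35.4 on day 4, and 124.2 to 150.0 and 7.95 to 45.8 on day 5, with 4, 6 and 8 of the 9 higher in KO. The 6 endoderm markers summed to 14.2 to 21.8 TPM in KO and 2.60 to 10.5 in WT on day 3, 89.0 to 89.1 and 14.9 to 20.2 on day 4, and 81.4 to 98.3 and 8.50 to 32.0 on day 5, with 1, 5 and 5 of 6 higher. In MUT on day 5 the streak and mesoderm sum was 47.2 to 54.3 TPM and the endoderm sum 44.8 to 49.8, with WT70 at 11.1 and 25.3. Foxa2 (4.72 ± 0.34), an endoderm and node factor, and T (6.21 ± 0.46), the streak factor Brachyury, were already higher in KO on day 3. The 7 fibroblast markers, which could come from feeder cells, summed to 21.4 to 24.2 TPM in KO and 28.6 to 34.8 in WT on day 3 and to 3.65 to 8.76 and 25.9 to 27.1 on day 4, with 1 of 7 lower on day 3 and 2 lower and 1 higher on day 4. On day 5 they summed to 8.22 to 21.1 and 21.7 to 22.5 TPM, with 2 higher and 2 lower. The 5 epiblast markers overlapped on day 3 (1110 to 1232 TPM in KO and 1132 to 1350 in WT) with 1 of 5 higher in KO. They summed to 301.9 to 332.4 and 526.8 to 555.1 TPM on day 4, with 1 higher and 2 lower, and to 58.9 to 90.1 and 185.5 to 203.3 TPM on day 5, with 3 of 5 lower. In KO and WT every streak, endoderm and epiblast marker had counts in at least 1 library of days 3, 4 and 5, and on day 4 KO and WT each had 1 fibroblast marker at 0 in both libraries. The part of these markers in the Sox differences was not tested.

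Partner genes of the POU family encode proteins that pair with Sox factors on DNA. Of 6 tested, 1 was higher in KO on day 3 (Pou3f3, 1.36 ± 0.41), 2 were lower on day 4 (Pou3f1, -1.51, and Pou3f2, -3.13) and 4 were lower on day 5. The 4 were Pou5f1, the pluripotency partner of Sox2 (-1.92 ± 0.16), and the neural partners Pou3f1 (-1.96 ± 0.18), Pou3f2 (-3.73 ± 0.59) and Pou3f4 (-1.60 ± 0.40). The median of the 6 was -1.76 on day 5, and that of all genes was -0.01. On days 3 and 4, 3 of the 6 were under 1 TPM in every KO library and 3 in every WT library. On day 5 there were 3 in KO and 2 in WT, so some of these values rest on low levels. None of the 6 passed between MUT and WT70 on either day. Of the 2 overlapping noncoding transcripts, Sox2ot was lower in KO on day 3 (-1.59 ± 0.34) and both were lower on day 4 (Sox2ot -1.71, Sox1ot -2.03) and day 5 (Sox2ot -3.25 ± 0.41, Sox1ot -1.68 ± 0.47), and neither passed between MUT and WT70. Both run on the strand of the Sox gene they span.

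Of 12 other Sox genes tested, none passed between KO and WT on day 3, 1 was higher and 2 lower on day 4, and 4 were higher and 1 lower on day 5, with medians of 0.09, -0.53 and 1.11. Sox17, an endoderm factor and one of the endoderm markers above, was higher in KO on day 4 (3.43 ± 0.48) and day 5 (3.32 ± 0.41), and Sox9, made in neural crest and cartilage among other tissues, was higher on day 5 (1.17 ± 0.18). Sox13 was lower on both days (-1.28 ± 0.17 and -1.53 ± 0.13), and Sox6 was lower on day 4 (-1.75 ± 0.31). Between MUT and WT70 none passed on day 3, and on day 5 Sox7 (2.78 ± 0.65) and Sox17 (2.40 ± 0.63) were higher in MUT.

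Neural plate and progenitor genes, 16 in all, held 1 lower in KO on day 0 (Otx2, -1.42 ± 0.37), none higher and 2 lower on day 3, 1 higher and 4 lower on day 4 and 2 higher and 7 lower on day 5 (medians -0.36, -0.65 and -0.68). They summed to 134.7 to 183.6 TPM in KO and 173.9 to 199.1 in WT on day 3 and to 215.0 to 237.7 and 254.9 to 258.9 on day 4. On day 5 the sums overlapped, at 155.6 to 294.8 and 203.6 to 260.7 TPM. The genes named below are all lower ones, and the higher ones are not named. Pax6, a forebrain and eye regulator, was lower from day 3 (-2.13 ± 0.34, then -6.02 ± 0.56 and -3.71 ± 0.35), which is the same first day as Sox1 and Sox2. Lhx5 (-4.57 ± 0.64) and Hesx1 (-4.39 ± 0.69), both anterior neural factors, were lower on day 4. On day 5 the Notch target Hes5 (-3.46 ± 0.42), Zic1 (-3.94 ± 0.46) and Nes, which encodes the progenitor filament nestin (-1.44 ± 0.14), were lower. Between MUT and WT70, none passed on day 3 and on day 5 Pax6 (-1.45 ± 0.40) and Otx2 (-1.05 ± 0.30) were lower.

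Neuronal onset genes are of the kind that SoxC factors are known to act on. Of 16, 1 was lower in KO on day 0 and on day 1 (Elavl3), and 1 was higher (Dcx, 1.74 ± 0.37) and 2 lower on day 2 (Elavl3, -1.73 ± 0.30, and Tubb3, -1.35 ± 0.23), when none of the 6 Sox genes passed both thresholds. On day 3, 1 was higher and 7 lower, on day 4, 2 higher and 7 lower, and on day 5 none higher and 11 lower (medians -0.77, -0.90 and -2.07). The summed level did not follow these counts. On day 0, in ESCs, it was already 239.3 to 303.4 TPM in KO and 281.6 to 285.7 in WT. Of the 16 genes, 11 in KO and 8 in WT were then under 1 TPM in every library, so the sum rested on the others. The sum was 458.3 to 549.9 TPM in KO and 533.9 to 667.7 in WT on day 3. On day 4 it was 719.5 to 746.0 and 557.8 to 620.2, and on day 5 635.7 to 680.5 and 559.5 to 739.3. On days 3, 4 and 5, 9, 11 and 10 of the 16 were under 1 TPM in every KO library, and 7, 9 and 6 in every WT library. Tubb3, which encodes a neuronal tubulin, was lower by -2.38 ± 0.17 on day 3, -2.63 ± 0.25 on day 4 and -3.19 ± 0.23 on day 5, and Elavl3, which encodes a neuronal RNA-binding protein, by -2.63 ± 0.22, -4.69 ± 0.45 and -3.23 ± 0.33. Dll3, a Notch ligand gene also expressed in presomitic mesoderm, was higher on day 4 (2.33 ± 0.33). Sox4 was above WT in every KO library of days 4 and 5. Between MUT and WT70 none passed on day 3 and Elavl3 was lower on day 5 (-1.75 ± 0.42).

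Likeness of pattern was measured as Pearson's correlation of mean log2 CPM over the 12 KO and WT groups, among 12133 genes, as a description. These groups share lines and days, so genes with a like course over time score high whether or not anything else links them. Among the members, Sox4 and Sox11 were most alike (0.94), followed by Sox3 with Sox11 (0.82) and with Sox4 (0.71), while Sox2 was at -0.70 with Sox4. The closest genes were Fezf2 (0.97), Wnt1 (0.97) and En1 (0.95) for Sox1, Gstm4 (0.97), Cpne9 (0.96) and Ltbp4 (0.95) for Sox2, and Lratd1, Plekha1 and St8sia3 (each 0.97) for Sox3. For Sox21 they were Adam9 (0.98), Glg1 and Atp7a (both 0.97). Genes close to Sox4 included Tsc22d3 (0.98) and Ramp2 (0.97), and the 3 closest to Sox11 were Thap2, Ms4a4d and Stc2 (each 0.98).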

How the data were processed

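Bulk polyadenylated RNA was sequenced as single reads from 36 libraries made with a kit that marks the strand. The authors trimmed reads with Trim Galore (0.6.4) and quantified them with Salmon (0.14.1) on GENCODE M23 (mm10), and they deposited gene-level expected counts and TPM for each of the 3 experiments. The submitters' processing notes also name DESeq2 (1.30.0), R (4.0.2) and Seurat.

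Here the deposited expected counts were rounded and tested with edgeR 4.0.16 (quasi-likelihood F test, R 4.3.3, TMM scaling) with 16 group means and a term for experiment 2, leaving 19 residual degrees of freedom. Genes were kept by a minimum count of 10 and a minimum total of 15, which left 21601. Deposited TPM served for levels only. Library totals of 10139521 to 26307363 counts set the precision of low genes such as Sox1, which had as few as 8 counts. The SE is the fold change divided by the square root of F, and intervals cover the spread of libraries. Scripts were tested on simulated data.

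Alternatives were RLE scaling, DESeq2 1.42.0, limma 3.58.1 on log2(TPM + 1) and log2(TPM + 0.1), no filter, no experiment term, each experiment or the compared libraries alone, a stricter fold, each library left out, and the cell line as a block. The same lines recur across days, but deviations from group means did not pair by line (42 correlations, -0.088 to 0.0658). The 6 genes, the gene lists and the tests were chosen with earlier results of these data known. Genes outside the 6 were named from those lists by size of change among those past the thresholds, and by likeness to a member (the 3 closest, of which 1 is not reported here). Positions came from GENCODE M21 (99.7% of identifiers matched) and promoters from RefSeq GRCm38.p6.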

Additional observations from a re-analysis of the deposited data

Results flagged for a closer look

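The KO difference from WT changed between days 3 and 5, by a test of the change itself, for Sox1 (-2.20), Sox3 (-2.09) and Sox4 (1.80). On day 5 the KO difference from WT and the MUT difference from WT70 were apart for Sox1 (-4.23), Sox2 (-1.46), Sox3 (-2.10) and Sox4 (1.13), all on the log2 scale. The value for Sox2 lost its call in several settings named above, and the cause was not tested. In the groups of 4 libraries no library of any member stood apart from the others by Dixon's criterion.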

How the results depend on the processing

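Of the 192 gene and comparison pairs of the 6 genes, 84 passed, and 70 of those did so in every setting other than the stricter fold. No value that passed changed sign under any alternative, while 66 sign changes occurred among values that did not pass. The largest main value among these was that of Sox21 on day 3 (-0.63), which was 0.22 in experiment 2 alone. The Sox1 step from day 3 to day 4 in KO went from 0.32 to -1.40 without KO15 of day 4. With a required log2 fold change of 1.5, the calls between one day and the next numbered 3 in WT (5 at 1) and 3 in KO (7 at 1), those for the KO effect against the MUT effect 2 (4 at 1) and those for KO against MUT 3 (5 at 1), by construction of the threshold. Without the filter on low counts, the KO effect against the MUT effect gave 6 calls. With 1 library left out at a time, the calls numbered 8 to 10 for KO against WT, 25 to 26 for WT and 23 to 24 for KO against day 0, 3 to 6 for WT and 7 to 9 for KO between one day and the next, 3 to 4 for the change between days 3 and 5, 3 to 4 for the KO effect against the MUT effect, 4 to 5 for KO against MUT, 2 for MUT between days 3 and 5 and 0 for MUT against WT70. Blocking on the line, so that libraries of the same line are paired across days, gave totals of 9 for KO against WT, 25 and 24 against day 0, 5 and 8 between one day and the next, 3 for the change between days 3 and 5, 0 for MUT against WT70, 2 within MUT, 3 for the KO effect against the MUT effect and 5 for KO against MUT. The block changed 2 calls, Sox1 in KO from day 4 to day 5 and Sox2 for the KO effect against the MUT effect on day 5. Sox2 had no day of onset in WT or KO, and Sox1 and Sox21 in KO none at the stricter fold or at 5 TPM, so no value stands for these. Without a WT70 library its comparison has no value. Depth limits Sox1 before day 4 and in KO throughout, where 1 library of day 4 held 8 counts, and Sox21 on days 1 and 2, where the lowest library held 15.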
